A study of Halocynthia roretzi with 24 samples.

Results

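The animal and vegetal hemispheres of the 8-cell embryo of *Halocynthia roretzi*, a solitary ascidian, were compared by RNA sequencing in 4 animal and 4 vegetal libraries, taken as 4 same-numbered sets (numbers 2 to 5). These are 8 of the 24 libraries of the series, which also holds 4 whole-embryo libraries at 8 cells and 4 libraries of each kind at 110 cells. All embryos were wild type, from a southwestern Japanese population reared in an inland laboratory, and the labels name no treatment for any group. The labels do not say how the hemispheres were separated, how many embryos went into a library or what a number marks, so the p-values rest on a spread among libraries that may be technical. Of 16078 gene models in the expression table, 10885 stood at 1 RPKM or more in at least 4 of the 8 libraries and were tested. RPKM relates the reads of a model to its length and to the reads in all genes of a library, so it gives a level per length and not an amount per cell. In libraries of whole hemispheres, fewer cells holding a transcript and less of it per cell cannot be told apart.

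Ascidian embryos divide in a fixed pattern, and the cleavage that yields the 8-cell stage parts an animal tier of blastomeres from a vegetal tier. At this stage most RNA is still the RNA that the egg was loaded with. Localized maternal RNAs are known from ascidians in particular at the posterior vegetal cortex, the so-called postplasmic or PEM RNAs, and mitochondria are gathered in the myoplasm, the vegetal cytoplasm that the muscle lineage inherits. Vegetal blastomeres give rise to endoderm, notochord and most muscle, and animal blastomeres mainly to epidermis and part of the nervous system. The annotation names models by identifiers such as Harore.CG.MTP2014.S480.g14149, in which S480 is the scaffold, and these are given below without the shared prefix. Positions are bases on these scaffolds in the deposited annotation, for which no genome build is named. Its notes name a best match, in most cases an identifier that starts with KH, which the files do not explain, so no function is given for these models. Of the marker names searched in the notes, 0 of 10 for postplasmic RNAs, 0 of 1 for animal and 0 of 3 for vegetal factors, and 1 of 11 for mitochondrial genes (ND5) were found, so the hemisphere labels could not be checked against known markers.

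Most transcripts stood at similar levels in both hemispheres, and those that passed the test were higher on the vegetal side. In the limma fit with the number as a block, 14 of 10885 models were called at a Benjamini-Hochberg adjusted p under 0.05, all of them vegetal-higher (0.129%), and 0 were called animal-higher (0%). At an unadjusted p under 0.05 stood 440 animal-higher (4.04%) and 393 vegetal-higher models (3.61%), 7.65% of those tested together. The few animal-higher differences that a larger fit called are given further below. The 14 lay on 10 scaffolds and the vegetal mean was 1.85 to 6.92 times the animal mean, with a median of 3.13. The vegetal level of the 14 had a median of 148 RPKM, against 24.7 RPKM over all tested models. The call used these same values and the scale understates low models, so this contrast is partly set by the call. In each of the 14, every animal library was below every vegetal library. Over all tested models the libraries were separated in this way in 148 animal-higher (1.36%) and 128 vegetal-higher models (1.18%). The count of 14 rested on particular sets of libraries, with 5 models called without number 3 and 6 without number 5.

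**Figure D1:**
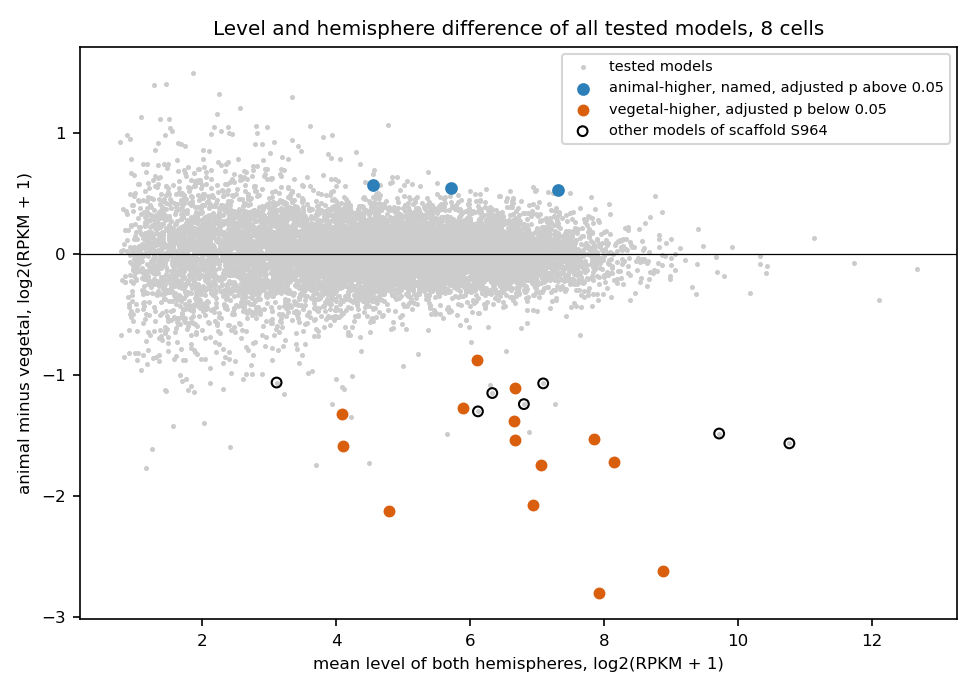
Mean level of both hemispheres (x axis, log2(RPKM + 1)) and animal minus vegetal difference (y axis, same scale) of the 10885 tested models. The 14 called models (orange) lie at -0.88 or below, and the 3 animal-higher models with a named match and the lowest adjusted p (blue) lie at 0.53 to 0.57.

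The difference was measured closely enough to bound it for most models. Among the 9141 models with a mean of at least 5 RPKM over both hemispheres, the 95% confidence interval of the log2 difference reached a median of 0.335 to either side. On the log2(RPKM + 1) scale it lay wholly within 2-fold in either direction for 8674 of them (94.9%). This scale understates RPKM ratios at low levels, so for low models the bound on the RPKM ratio is wider. On the same scale it lay wholly beyond 2-fold for 15 models on the vegetal side and for 0 on the animal side. These intervals are not adjusted for the number of models, and the 15 are not the called models. They include the ND5 model, which did not pass the test (limma adjusted p = 0.0925). The called S71.g05215 and S672.g15167 are not among them, as their intervals ended at -0.67 and -0.90. That of the called S375.g14187 ended at -1.0, close to the 2-fold bound. Among the 9268 models at 5 RPKM or more in the higher hemisphere, separated libraries with means at least 1.5-fold apart were seen in 7 animal-higher (0.0755%) and 40 vegetal-higher models (0.432%). With means at least 2-fold apart these were 2 animal-higher (0.0216%) and 27 vegetal-higher models (0.291%).

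The steepest differences were those of 2 models that overlap on scaffold S480. S480.g14149 (10488 to 16473, minus strand, best match KH.C1.755) stood at 94.97, 132, 147 and 148 RPKM in the animal libraries 2 to 5, against 658, 868, 967 and 731 RPKM in the vegetal libraries. Every vegetal library was more than 4-fold above the animal library of its number, with ratios of 4.94 to 6.93. The log2 difference of animal minus vegetal was -2.62 ± 0.11 (SE; limma, adjusted p = 0.000865). S480.g12062 (9248 to 10663, plus strand, no match named) stood at 41.6, 57.3, 72.7 and 72.6 RPKM in animal and at 419, 456, 415 and 399.7 RPKM in vegetal libraries (log2 -2.80 ± 0.16 SE, limma adjusted p = 0.00171). Its vegetal libraries were close to each other, and the ratio within a number varied with the animal library, between 5.51 in number 5 and 10.1 in number 2. With a vegetal mean of 806 ± 138.1 RPKM (SD, n = 4), S480.g14149 was at percentile 99.85 of the tested models in the vegetal hemisphere, among the most abundant there.

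**Figure D2:**
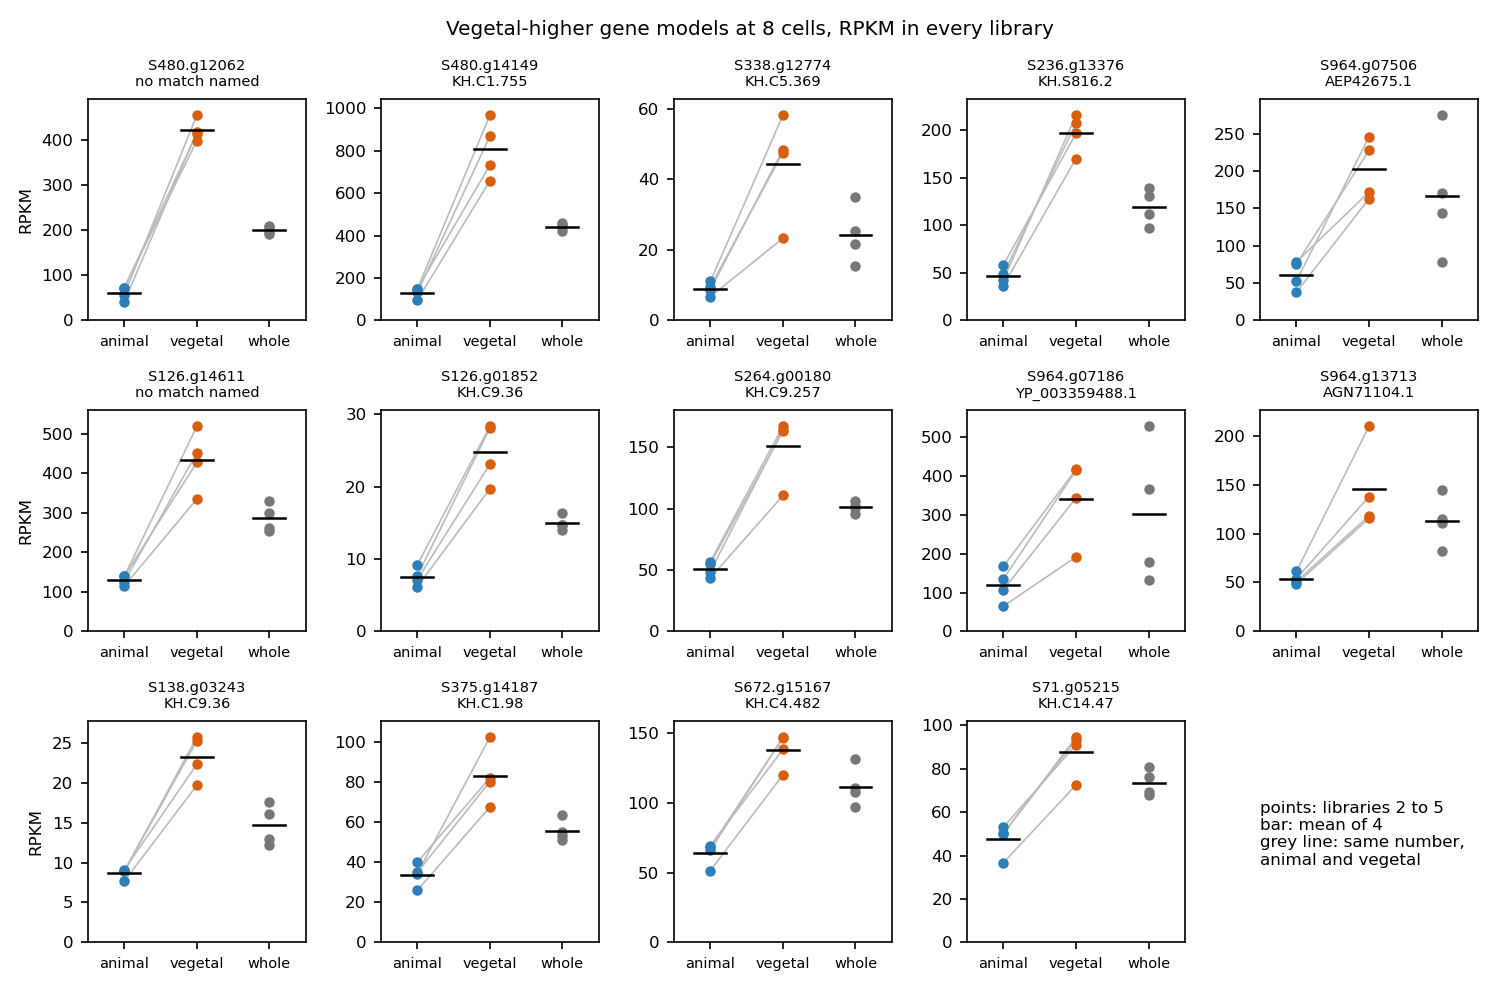
RPKM (y axis, from 0, a separate scale in each panel) of the 14 vegetal-higher models in the 4 animal, 4 vegetal and 4 whole-embryo libraries at 8 cells. Bars are means and grey lines join animal and vegetal libraries of the same number; no animal point reaches a vegetal point in any panel, and the whole-embryo means lie between the hemisphere means.

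Among the other called models with a named match, S236.g13376 (144127 to 147032, best match KH.S816.2) stood at 48.8, 36.7, 42.6 and 58.3 RPKM in animal libraries, against 207, 170.2, 216 and 197 RPKM in vegetal libraries. Its means were 46.6 ± 9.22 RPKM on the animal side and 197.5 ± 19.8 RPKM on the vegetal side (SD, n = 4 each), a log2 difference of -2.08 ± 0.11 SE (limma adjusted p = 0.00171). It was among the 4 models called under every alternative that was run, together with both S480 models and S126.g14611.

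S338.g12774 (89037 to 97323, 22 exons, best match KH.C5.369) was lower in level, at 8.70, 9.57, 6.70 and 11.04 RPKM in animal libraries, against 48.4, 47.6, 23.3 and 58.1 RPKM in vegetal libraries. The libraries of number 4 were the lowest of each hemisphere, and the ratio held at 3.48 there, against 4.97 to 5.57 in the other numbers (log2 -2.13 ± 0.15 SE, limma adjusted p = 0.00539). The call was lost without number 3 or 5 (adjusted p up to 0.103). Another model with the same best match, the short S2345.g02292 with 286 bases of exons, had 16.8, 9.33, 5.35 and 6.95 RPKM in animal and 35.5, 42.6, 16.1 and 39.9 RPKM in vegetal libraries. It was vegetal-higher in 4 of 4 numbers, its libraries overlapped, and it did not pass the test (adjusted p = 0.0894). Such models share a match, and reads that fit both could have been assigned to either.

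S264.g00180 (91036 to 100002, best match KH.C9.257) stood at 43.6, 55.2, 56.9 and 48.8 RPKM in animal and at 111, 163, 167 and 165 RPKM in vegetal libraries. Vegetal library 2 was apart from the other 3, yet the ratio in that number was still 2.54, against 2.94 to 3.37 in the others (log2 -1.54 ± 0.10 SE, limma adjusted p = 0.00242). The call missed the threshold without number 3 (adjusted p = 0.0643). Of the other tested models with this best match, S139.g04292 averaged 13.95 RPKM on the animal side and 15.03 RPKM on the vegetal side (adjusted p = 0.903). S15.g14311 averaged 11.6 RPKM on the animal side and 10.1 RPKM on the vegetal side (adjusted p = 0.836), so neither passed the test.

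S375.g14187 (9310 to 15739, best match KH.C1.98) stood at 25.9, 34.3, 34.8 and 39.9 RPKM in animal and at 67.4, 102, 80.0 and 81.9 RPKM in vegetal libraries. The ratio was 2.05 to 2.98, and the libraries did not overlap (log2 -1.27 ± 0.11 SE, limma adjusted p = 0.0133). The call was lost without number 3, 4 or 5 and without a trend in the prior variance (adjusted p up to 0.139). A second model with this match on the same scaffold, S375.g06915 (27413 to 36620), was at 2.90, 13.1, 14.1 and 11.4 RPKM in animal and at 23.04, 29.5, 25.1 and 21.6 RPKM in vegetal libraries. Its libraries were also separated, with animal library 2 far below the other 3, and it did not pass the test (adjusted p = 0.544).

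The smallest called differences were those of S672.g15167 and S71.g05215. S672.g15167 (best match KH.C4.482), which begins at the first base of its scaffold, stood at 51.5, 69.5, 66.1 and 68.2 RPKM in animal and at 120.1, 138.4, 147 and 147 RPKM in vegetal libraries. The ratio within a number stayed between 1.99 and 2.33 (log2 -1.11 ± 0.08 SE, limma adjusted p = 0.00659). It was lost without number 3 or 5 and without a trend in the prior variance (adjusted p up to 0.135). Another model with that best match, S109.g03127, was at 20.01 RPKM on the animal side and 22.3 RPKM on the vegetal side and did not pass the test (adjusted p = 0.789). S71.g05215 (163523 to 173982, best match KH.C14.47) stood at 36.7, 53.1, 49.98 and 50.4 RPKM in animal and at 72.5, 91.1, 94.5 and 93.3 RPKM in vegetal libraries (log2 -0.88 ± 0.09 SE, limma adjusted p = 0.0215). Its difference was even, with ratios of 1.72 to 1.97, but the call was lost in 6 of 15 alternatives, among them the fit without the block and each fit without 1 number, in which the adjusted p reached at most 0.346. Another model with that best match, S791.g11058, averaged 52.9 RPKM on the animal side and 59.2 RPKM on the vegetal side, was vegetal-higher in 2 of 4 numbers and did not pass the test (adjusted p = 0.890).

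The largest gene models of the annotation were among the vegetal-higher ones. S138.g03243 (8016 to 112579, minus strand) has 71129 bases in 350 exons and S126.g01852 (110722 to 221780, minus strand) 66274 bases in 338 exons, the longest and the next longest exon length in the expression table. Both name KH.C9.36 as best match. S126.g01852 stood at 6.17, 7.67, 7.17 and 9.20 RPKM in animal and at 19.7, 28.1, 23.1 and 28.4 RPKM in vegetal libraries (log2 -1.59 ± 0.13 SE, limma adjusted p = 0.00957). S138.g03243 stood at 9.09, 8.91, 7.67 and 8.91 RPKM in animal and at 22.3, 25.2, 19.7 and 25.7 RPKM in vegetal libraries (log2 -1.32 ± 0.13 SE, limma adjusted p = 0.0215). Vegetal levels were about 3 times the animal ones in each number, with ratios of 3.08 to 3.66 and of 2.45 to 2.88. Both calls were lost without number 3, 4 or 5, with adjusted p up to 0.140 and 0.312. A further 13 models name the same match. Of these 4 were tested, none of them was called (lowest adjusted p = 0.705), and the highest mean of 4 libraries among the 13 was 3.88 RPKM on the animal side and 3.54 RPKM on the vegetal side. How far reads were shared between these models by the authors' counting is not known.

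Short models without a named match sat at the 3′ ends of several vegetal-higher models and had higher vegetal than animal means. S126.g14611 (111249 to 111749, plus strand), itself among the 14, stood at 115, 139, 125.9 and 139 RPKM in animal and at 335, 519, 451 and 427 RPKM in vegetal libraries (log2 -1.72 ± 0.10 SE, limma adjusted p = 0.00171). All 330 bases of its exons lie within the exons of S126.g01852, on the opposite strand, from position -1027 to -527 relative to the annotated 3′ end. The libraries do not keep strand, so reads from both cannot be told apart. The short model stood at 433 RPKM and the long one at 24.8 RPKM in vegetal hemispheres, which are levels per length and not numbers of reads. The same arrangement was seen at the 3′ end of S138.g03243, where an opposite-strand model with 394 of 432 exon bases shared averaged 98.0 ± 60.0 RPKM on the animal side and 208 ± 51.9 RPKM on the vegetal side (SD, n = 4 each). At the 3′ end of S71.g05215 a model with all 414 exon bases shared averaged 66.6 ± 14.9 RPKM on the animal side and 118 ± 30.1 RPKM on the vegetal side. Past the 3′ end of S375.g14187, from 344 to 723 bases and on the same strand, lay a model at 49.0 ± 13.03 RPKM on the animal side and 106 ± 32.4 RPKM on the vegetal side.

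A further opposite-strand model at the 3′ end of S126.g01852, from position -500 to 968 relative to it, averaged 60.9 ± 23.4 RPKM on the animal side and 173 ± 66.5 RPKM on the vegetal side. It did not pass the test (adjusted p = 0.549) and was close to equal in number 2, at 81.6 RPKM in the animal and 83.1 RPKM in the vegetal library. The 3 short models at S138.g03243, S71.g05215 and S375.g14187 were vegetal-higher in 4 of 4 numbers, as were 7.39% of all tested models. They did not pass the test (limma adjusted p = 0.545, 0.541 and 0.580). Those at S138.g03243 and S71.g05215 share exon bases with the called model, so its reads may be counted in them. In number 2 the one at S138.g03243 stood at 181 RPKM in the animal and 185 RPKM in the vegetal library, close to equal, while in number 3 it stood at 49.0 RPKM in the animal and 199.9 RPKM in the vegetal library. S480.g12062 also spans the 3′ end of its partner, from position -175 to 1240 relative to the end of S480.g14149, with 156 exon bases shared. A model without a named match lay in the last 1 kb of, or up to 1 kb past, the 3′ end of 7 of the 12 called models with a named match, and of 1778 of the 8191 tested models with a named match (21.7%). This window was set after the values were seen, and no test was made. Not all of the 7 have a short, vegetal-higher model there. The one past S338.g12774 has 3496 exon bases and averaged 0.065 RPKM on the animal side and 0.361 RPKM on the vegetal side. The one past S964.g13713 has 1020 exon bases, begins 857 bases past the end and is itself on scaffold S964.

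**Figure D3:**
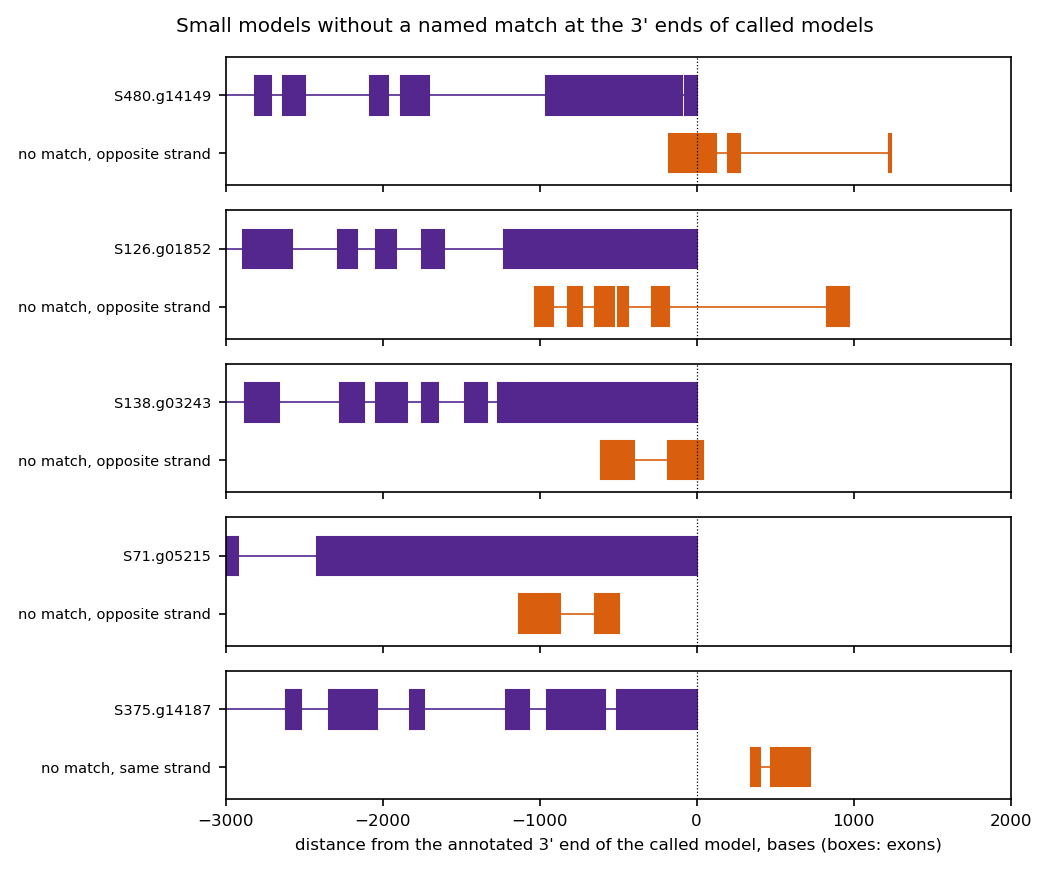
Exons (boxes) of 5 called models (purple) and of the models without a named match beside them (orange), drawn by distance in bases from the annotated 3′ end of the called model, which runs from left to right. The orange models share exon bases with the called model in 4 of the 5 panels and lie past its end in the S375.g14187 panel; the S126.g01852 panel holds 2 of them in a row.

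Scaffold S964 formed a group of its own on the vegetal side. All of its 11 models are on the plus strand, and the note of S964.g01698 (6139 to 6998) names ND5, which is part of complex I of the respiratory chain and is encoded in mitochondrial DNA. Reads in the models of this scaffold made up 0.124, 0.104, 0.102 and 0.1003% of gene reads in animal libraries 2 to 5, against 0.275, 0.323, 0.261 and 0.325% in vegetal libraries. Every vegetal library was above every animal library, with means of 0.108 ± 0.0111% in animal and 0.296 ± 0.0328% in vegetal hemispheres (SD, n = 4 each). Of the 10 tested models, 9 were vegetal-higher in 4 of 4 numbers, as were 7.39% of all tested models. Of the 10, 3 were called, against 0.129% of all tested models. The median log2 difference of the 10 was -1.34, against 0.01 over all tested models. The scaffold was known from earlier results of these data to be vegetal-higher, so its direction is no independent evidence.

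Called on this scaffold were S964.g07506, S964.g07186 and S964.g13713, whose notes name protein records without a gene name. S964.g07186 (1033 to 1627) stood at 135, 168, 65.0 and 108 RPKM in animal and at 414, 417, 192 and 343 RPKM in vegetal libraries (log2 -1.53 ± 0.09 SE, limma adjusted p = 0.00227). The level changed more than 2-fold between numbers in both hemispheres alike, and the ratio stayed at 2.49 to 3.19. Without the block this call was lost (adjusted p = 0.367 in the fit of all 24 libraries, the highest of its alternatives). S964.g07506 (1682 to 1957) stood at 52.9, 75.5, 78.3 and 37.7 RPKM in animal and at 246, 228, 172 and 163 RPKM in vegetal libraries (log2 -1.75 ± 0.18 SE, limma adjusted p = 0.0269). S964.g13713 (9609 to 10199) stood at 51.0, 48.7, 61.2 and 53.8 RPKM in animal and at 118, 115, 209 and 137.8 RPKM in vegetal libraries (log2 -1.38 ± 0.12 SE, limma adjusted p = 0.0102). Both calls were lost without number 3 or 5 and without a trend in the prior variance, at limma adjusted p up to 0.306 and 0.142. That of S964.g07506 was also lost without number 2 and with no filter. That of S964.g13713 was also lost in the fit of all 24 libraries without the block (limma adjusted p = 0.143).

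The ND5 model was the most abundant of the scaffold, at 555, 878, 1111 and 937 RPKM in animal and at 1909, 3254, 1834 and 3433 RPKM in vegetal libraries. The groups did not overlap, the ratio was 1.65 in number 4 and 3.44 to 3.70 in the others, and the model did not pass the test (log2 -1.57 ± 0.22 SE, limma adjusted p = 0.0925). Without number 4 it passed, at an adjusted p of 0.00724 that was the lowest of its alternatives, and the highest was 0.754.

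**Figure D4:**
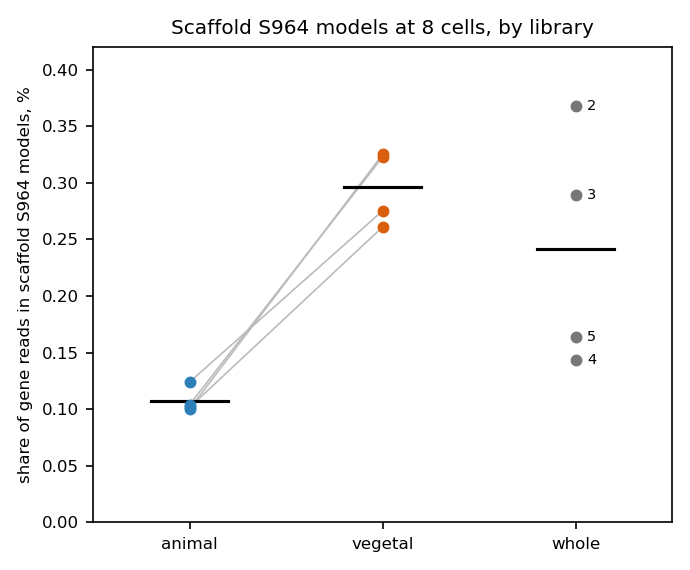
Share of gene reads (y axis, percent) in the 11 models of scaffold S964 in each 8-cell library. Points are libraries, bars means of 4, grey lines join animal and vegetal libraries of the same number, and digits give the number of the whole-embryo libraries. Animal libraries lie at 0.1003 to 0.124% and vegetal libraries at 0.261 to 0.325%, while whole embryos spread from 0.144% in number 4 to 0.368% in number 2.

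On the animal side no model was called. The lowest adjusted p was that of S131.g07680 (156801 to 169395, best match KH.C10.106), which stood at 176, 174, 192 and 201 RPKM in animal and at 120.1, 114, 140.4 and 139 RPKM in vegetal libraries. The animal libraries were all above the vegetal ones, 1.44 times on the means, but the test was not passed (log2 0.53 ± 0.08 SE, limma adjusted p = 0.138). Next among models with a named match was S8.g10414 (219184 to 223968, KH.C5.155), at 29.8, 24.5, 24.2 and 29.1 RPKM in animal and at 18.8, 15.6, 17.01 and 19.6 RPKM in vegetal libraries (log2 0.57 ± 0.11 SE, limma adjusted p = 0.417). S92.g02903 (177805 to 190687, KH.L116.16) was at 59.7, 59.2, 58.6 and 66.1 RPKM in animal and at 47.8, 43.0, 35.4 and 40.6 RPKM in vegetal libraries (log2 0.54 ± 0.11 SE, limma adjusted p = 0.431). All 3 were animal-higher in 4 of 4 numbers, as were 9.66% of all tested models. Their groups were separated, as were those of 1.36% of all tested models in the animal-higher direction. The 3 were chosen by adjusted p in these same libraries, so this separation is no separate evidence. The 95% confidence interval of their log2 difference ended below 1, at 0.72, 0.84 and 0.80.

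A fit of all 24 libraries with the number within stage as a block, which takes the spread from 110-cell and whole-embryo libraries as well, called 53 models, 15 animal-higher and 38 vegetal-higher. The 15 include S131.g07680 (adjusted p = 0.0018), S92.g02903 (0.00847) and S8.g10414 (0.0201), all at the same log2 differences. The fit of the same 24 libraries with no block called 0 animal-higher models (187 at an unadjusted p under 0.05), with S131.g07680 at an adjusted p of 0.141, and the cause of the difference between these fits was not tested. The 2 animal-higher models with separated libraries and means at least 2-fold apart have no match named and were low in level. One averaged 7.35 RPKM on the animal side and 2.51 RPKM on the vegetal side (adjusted p = 0.383), and the other 10.1 RPKM on the animal side and 4.68 RPKM on the vegetal side (adjusted p = 0.520).

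Just outside the threshold all models were vegetal-higher. Between adjusted p of 0.05 and 0.1 stood 9 vegetal-higher and 0 animal-higher models. Besides the ND5 model and S2345.g02292 they include 3 models with a named match on other scaffolds, which are given here after their values were seen. S447.g02162 (KH.S852.2) averaged 153 RPKM on the animal side and 242 RPKM on the vegetal side (adjusted p = 0.0821). S278.g09835 (KH.S1330.3) averaged 11.5 RPKM on the animal side and 24.2 RPKM on the vegetal side (adjusted p = 0.0824). S287.g05605 (KH.C1.146) averaged 8.14 RPKM on the animal side and 20.53 RPKM on the vegetal side (adjusted p = 0.0839). The libraries of the hemispheres did not overlap in any of these 3, as in 1.18% of all tested models in the vegetal-higher direction. The 3 were picked by their adjusted p in the same libraries, so this separation is no separate evidence.

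Whole embryos, whose libraries took no part in the calls, lay between the hemispheres. A whole embryo holds both hemispheres, so a wide difference between them sets this position, and it is no independent evidence for the calls. Most tested models stood at similar levels in both hemispheres, so the shares over all of them are no like comparison. For all 14 models the whole-embryo mean was between the animal and the vegetal mean, as it was for 36.8% of all tested models. Within single numbers this held in 51 of 56 cases, 42 of 44 for the 11 models outside scaffold S964 and 9 of 12 for the 3 on it, and in 37.7% of cases over all tested models. S480.g14149 stood at 448, 439.9, 419.9 and 458 RPKM in whole embryos, between 131 ± 24.9 RPKM on the animal side and 806 ± 138.1 RPKM on the vegetal side (SD, n = 4 each). On the way from the animal to the vegetal mean, the whole-embryo mean of the 11 models stood at 38.9 to 64.6%, with a median of 46.0%. The 3 called models of scaffold S964 stood nearer to the vegetal level, at 65.0 to 81.9%. Whole-embryo libraries differed widely in this scaffold, with ND5 at 3127 and 3201 RPKM in numbers 2 and 3 and at 943 and 1382 RPKM in numbers 4 and 5. In number 2 the whole-embryo library was above the vegetal library, at 1909 RPKM, and in number 4 it was below the animal library, at 1111 RPKM. The hemisphere libraries of these numbers did not split in this way, and the cause was not tested.

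The vegetal side was still the higher one at 110 cells for all 14 models. In a fit of the 110-cell libraries with the number as a block, 14 of 14 were called vegetal-higher, where 1.92% of the tested models were, and all 14 were vegetal-higher in 4 of 4 numbers, where 10.7% of the tested models were. These libraries were not used for the 8-cell calls, but the result was known in part from earlier results of these data, and libraries of both stages share their numbers. The vegetal mean was 1.63 to 11.9 times the animal mean at 110 cells, with a median of 3.15. The change of the difference between stages was called for 0 of the 14 (limma), where 1.13% of the tested models were (0.478% towards animal, 0.652% towards vegetal). The lowest adjusted p among the 14 was 0.0581, and 4 of the 14 had an unadjusted p under 0.05, where 9.99% of the tested models did. The change includes the 8-cell values from which the 14 were called. Picking wide differences there favors smaller ones at 110 cells, so the shares over all tested models are no like comparison.

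Levels went different ways while the difference stayed on the vegetal side. S480.g12062 was at 10.9 ± 2.88 RPKM on the animal side and 130 ± 63.8 RPKM on the vegetal side at 110 cells, below its 8-cell levels in both. S126.g14611 was at 153 ± 51.0 RPKM on the animal side and 544 ± 32.8 RPKM on the vegetal side at 110 cells, not below its 8-cell means of 129.8 and 433 RPKM (SD, n = 4 each). The lowest adjusted p for a change of the difference was that of S338.g12774, whose log2 difference was -2.13 ± 0.15 SE at 8 cells and -1.09 ± 0.14 SE at 110 cells. At 110 cells it stood at 30.9 ± 10.9 RPKM on the animal side and 64.5 ± 10.4 RPKM on the vegetal side, both above the 8-cell means of 9.004 and 44.4 RPKM. On the animal side S131.g07680 had a log2 difference of 0.50 ± 0.08 SE at 110 cells, where it passed the test (limma adjusted p = 0.0301), as 1.76% of the tested models did in the animal-higher direction. S92.g02903 and S8.g10414 did not pass at 110 cells (adjusted p = 0.0695 and 0.0823). All 3 were animal-higher in 4 of 4 numbers at 110 cells, as were 19.2% of the tested models.

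**Figure D5:**
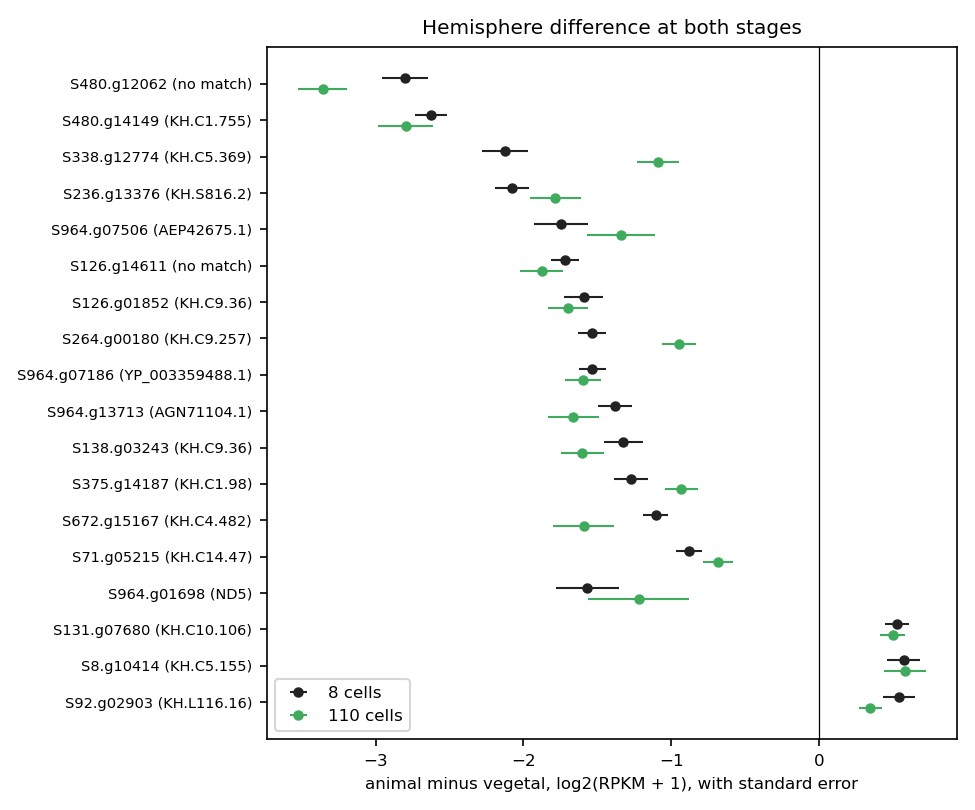
Animal minus vegetal difference on the log2(RPKM + 1) scale (x axis, with standard error) at 8 cells (black) and at 110 cells (green) for the 14 called models, ND5 and the 3 named animal-higher models. All vegetal-higher models stay left of 0 at both stages, and S338.g12774 stands at -2.13 at 8 cells and at -1.09 at 110 cells.

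In structure the 14 models were not alike. Their exon length ran from 222 to 71129 bases with a median of 2140, against 1666 over all tested models, and 1 of the 14 had a single exon, against 12.3% of those tested. A 3′ untranslated region was annotated for 8 of the 14 and for 46.5% of the tested models. The notes named a KH match for 9, a protein record for 3, all on scaffold S964, and no match for 2. Of all tested models, 71.6% had a KH match, 3.68% a protein record and 24.8% no match.

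Same-numbered animal and vegetal libraries resembled each other more than libraries of the same hemisphere did. Their Spearman correlation across the tested models was 0.961 to 0.981, against 0.929 to 0.962 between animal libraries and 0.948 to 0.958 between vegetal libraries. The correlations run over gene models, which are no independent replicates. The median ratio of vegetal to animal level over the 14 models was 2.992, 2.995, 3.087 and 3.137 in numbers 2 to 5. The fit with the number as a block favors models with an even difference across numbers, so this narrow range is no separate evidence. Depth, inferred from the steps between low values, was 6.03 to 9.002 M reads in genes in animal and 4.43 to 6.39 M in vegetal libraries.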

How the data were processed

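Per the labels' protocols, total RNA came from Trizol extraction, and an unstranded TruSeq RNA kit served for the hemisphere libraries. The submitters' processing notes name HISAT2 with no version; the genome build and how reads were counted, multiply matching ones included, are not given here by any source. For each library the authors deposited RPKM values of 16078 models, of which 16077 had an entry in the deposited annotation of 16082 models. Low values multiplied by exon length were fitted to whole reads. Within 0.1 reads of a whole number lay 53.7 to 55.8% of values up to 20 reads (20% by chance), and 79.8 to 86.6% of these were even, so reads may have been counted as mates of 2.21 to 4.50 M pairs. A floor of 3 reads was 0.222 to 0.452 RPKM at 1.5 kb, and of 3 pairs 0.444 to 0.903 RPKM, for counting error only. Reads were not recovered exactly, so no count model was used.

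The package limma (version 3.58.1, R version 4.3.3) was applied to log2(RPKM + 1), which understates changes of low genes. The number was a block, the prior variance had a trend, and two-sided p-values were adjusted by the Benjamini-Hochberg method over all 10885 models. Deviations from group means of same-numbered animal and vegetal libraries correlated at 0.378 to 0.607 at 8 cells, so the labels' numbers were taken to pair the libraries. Those of other numbers correlated at -0.0393 at most, which is no separate evidence, since deviations from a group mean offset each other. The scripts were tested on simulated data. Folds without log2 are ratios of mean RPKM. Per direction, called models at 5 RPKM or more with the same sign in 4 of 4 numbers were named, up to 12 with and 2 without a named match, plus 3 uncalled animal-higher models, the ND5 model and models that share a match. Members, lists and alternatives (pseudocount, filter, scaling, trend, libraries in the fit, block, single numbers left out) were chosen with earlier results of these data known. Of the library pairs, 0 were identical in their values.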

Additional observations from a re-analysis of the deposited data

Results flagged for a closer look

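In groups of 4 libraries a value was marked when its gap to the nearest other value took up nearly the whole range of the group. Chance marks about 1 in 20 groups, and 57 groups were examined. The 5 marked values are S264.g00180 at 110.8 RPKM in vegetal library 2, below the other 3, S71.g05215 at 72.5 RPKM in vegetal library 2, also below, S138.g03243 at 7.67 RPKM in animal library 4, below, S92.g02903 at 66.1 RPKM in animal library 5, above, and the share of gene reads in scaffold S964 at 0.124% in animal library 2, above. For S264.g00180 and S71.g05215 the ratio of vegetal to animal level in number 2 was 2.54 and 1.97, with the animal library of that number lowest as well.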

How the results depend on the processing

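At 8 cells 14 models were called, and 11 to 16 under 9 of 11 alternatives that kept all numbers: other pseudocounts, filters, scalings, scaffold S964 left out, and the fits with no replicate block (13 in the 8 libraries, 16 in all 24). Without a trend in the prior variance 9 were called, all vegetal-higher, and in the fit of 24 libraries with the replicate block within stage 53, of which 15 animal-higher and 38 vegetal-higher. With 1 number left out 5 to 19 were called, all vegetal-higher. The 14 were shared in full with 53 called in 24 libraries, and 5 and 6 of them remained without number 3 and 5. Similar counts did not always mean the same models. Of the 14, 12 were called in each fit with no replicate block, 12 without number 2 and 10 without number 4. No named model changed direction under any alternative. At 110 cells 401 models were called, and 165 with no replicate block, 689 with no filter, 260 with a filter of 5 RPKM, 192 without a trend and 108 to 186 with 1 number left out. The change between stages was called for 123 models, and for 65 with no replicate block, 563 with no filter, 53 with a filter of 5 RPKM and 33 to 75 with 1 number left out. More or fewer models are tested under another filter; for the other settings the cause was not tested. Depth limits what can be said of models near 1 RPKM.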
